A study of Mus musculus with 18 samples.

Results

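The genes described here build and control the contractile apparatus of mammary myoepithelium. They are 41 named genes for actins, myosin, calponins, tropomyosins, the kinases and phosphatase that act on myosin, the transcription factors that drive smooth muscle genes, the oxytocin receptor, ion channels and actin cross-linkers. They were chosen by name, by matching gene symbols to the identifiers in the count tables, which hold 52489 genes matched to the GENCODE M21 annotation. Of the 41 genes 39 passed the filter on low counts, which kept 16471 genes in all. Myocd was too low and Srf was listed at 0. The counts come from 18 RNA sequencing libraries of mammary gland cells from nulliparous mice aged 12 weeks. All carried the MMTV-Cre transgene, in which a mouse mammary tumour virus promoter drives Cre recombinase mainly in mammary epithelium. The labels name no floxed allele and no treatment. Cells of 6 numbered samples were sorted into 3 populations by the surface proteins CD49f, CD61 and EpCAM and by blood and endothelial antigens (CD31, CD45, Ter119), with 6 libraries each. The labels do not say whether each number is a separate animal, so p-values measure the spread between these samples, which may be partly technical. Basal cells, the layer that holds the myoepithelium, were CD49f high and CD61 positive. Alveolar progenitors (AP), a luminal population, had low CD49f and carried CD61. The hormone-sensing luminal cells (HSL) had low CD49f and lacked CD61.

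Myoepithelial cells wrap the ducts and alveoli of the mammary gland and squeeze milk out of them. Oxytocin binds its receptor, a Gq-coupled receptor, and phospholipase C then makes inositol trisphosphate, which opens calcium channels of the endoplasmic reticulum. Calcium bound to calmodulin switches on myosin light chain kinase, which phosphorylates the regulatory light chain and starts the cross-bridge cycle on smooth muscle actin, while RhoA and its kinases hold back the myosin phosphatase. Serum response factor (SRF) with its cofactors of the myocardin family drives many of these genes from a short DNA element, the CArG box. Cyclic GMP and its kinase relax smooth muscle.

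Basal libraries held 29899462 to 91095830 counts, AP libraries 37391691 to 62505465 and HSL libraries 26516293 to 52404937. Levels are CPM, counts scaled by library size and TMM factors to a common total of 1000000, unless a length-scaled value is named, and fold changes are log2 values ± their standard errors. Summed markers went with the labels: 6 basal keratin and related genes lay between 15843 and 25122 CPM in basal, 140 and 236 CPM in AP, and 25.2 and 119 CPM across HSL libraries, and 8 luminal genes between 739 and 2603, 5922 and 16400, and 13556 and 35297 CPM in the same order. The 3 libraries of sample 1 stood apart on the third principal component of all genes (7.82% of the variance), with scores from 76.05 to 90.87 against -54.77 to 19.47 for the other 15. Results that move without them are given both ways. In sorted bulk RNA a change in the share of cells that hold a transcript and a change per cell cannot be told apart.

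The DNA before the start sites was read first for the CArG box, by its exact consensus on both strands, in windows of 300 bases (250 before and 50 after each RefSeq start, GRCm38.p6). Of the 35 contractile genes with a window 3 held a match (8.57%), against 1.81% of 27025 genes: Cnn2, which encodes calponin 2, Myl9, the regulatory light chain, and Srf, with 2 boxes. A looser search that let 1 of the central 6 bases be G or C was added after the exact result was seen, and found 8 of the 35 (22.9%) against 11.3% of genes, with Acta2, smooth muscle actin, among them. The 250 bases before the start are printed for 3 genes that the results below turn on, 5′ to 3′ on the strand of the gene, to show where the boxes lie, and capitals mark matches of the looser search. The box of Cnn2 at bases -56 to -47 and the first of Myl9 at -161 to -152 match exactly, and the boxes of Acta2 at -84 and -34 and the second of Myl9 at -99 carry 1 G or C. The windows lie at chr19:34255374-34255623 on the minus strand for Acta2, at chr2:156775214-156775463 on the plus strand for Myl9 and at chr10:79988350-79988599 on the plus strand for Cnn2.
Acta2: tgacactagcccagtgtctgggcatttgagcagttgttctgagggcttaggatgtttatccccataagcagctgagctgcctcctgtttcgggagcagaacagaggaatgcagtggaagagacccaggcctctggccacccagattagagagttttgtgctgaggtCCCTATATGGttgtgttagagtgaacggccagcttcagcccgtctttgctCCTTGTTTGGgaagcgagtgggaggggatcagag
Myl9: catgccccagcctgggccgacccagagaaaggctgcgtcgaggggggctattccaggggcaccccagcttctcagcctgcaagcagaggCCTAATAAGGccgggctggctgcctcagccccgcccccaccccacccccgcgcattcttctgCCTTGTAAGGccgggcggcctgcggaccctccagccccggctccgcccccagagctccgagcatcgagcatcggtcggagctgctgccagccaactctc
Cnn2: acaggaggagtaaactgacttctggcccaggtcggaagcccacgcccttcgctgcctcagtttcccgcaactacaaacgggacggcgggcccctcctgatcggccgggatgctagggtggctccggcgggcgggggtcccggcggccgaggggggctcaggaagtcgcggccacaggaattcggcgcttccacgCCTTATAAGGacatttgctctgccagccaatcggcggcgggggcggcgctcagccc
A match is a description of letters and not a binding site. All 3 genes were far higher in basal than in either luminal population, but so were Oxtr and Cnn1, whose windows held no match.

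Nearly the whole apparatus was higher in basal cells. Against AP, 34 of the 39 tested genes were higher in basal at an adjusted p under 0.05 (edgeR quasi-likelihood test, Benjamini-Hochberg over all genes), where 23.1% of all genes were, and none was lower, where 21.5% were. The median log2 fold change was 3.40 for the 39 genes and 0.00 for all. In 30 of the 39 every basal library exceeded every AP library, as in 14.4% of all genes. Against HSL, 32 were higher in basal (30.6% of all genes) and 2 lower (27.8%), with a median log2 fold change of 3.98, against 0.06 for all. In 31 of them every basal library exceeded every HSL library (20.1%), and in 1, Tpm3, every basal library was below (16.8%). The comparisons share their basal libraries. Together the 41 genes took 3.57 to 5.59% of counts in basal, 0.356 to 0.419% in AP and 0.296 to 0.343% across HSL libraries.

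**Figure D1:**
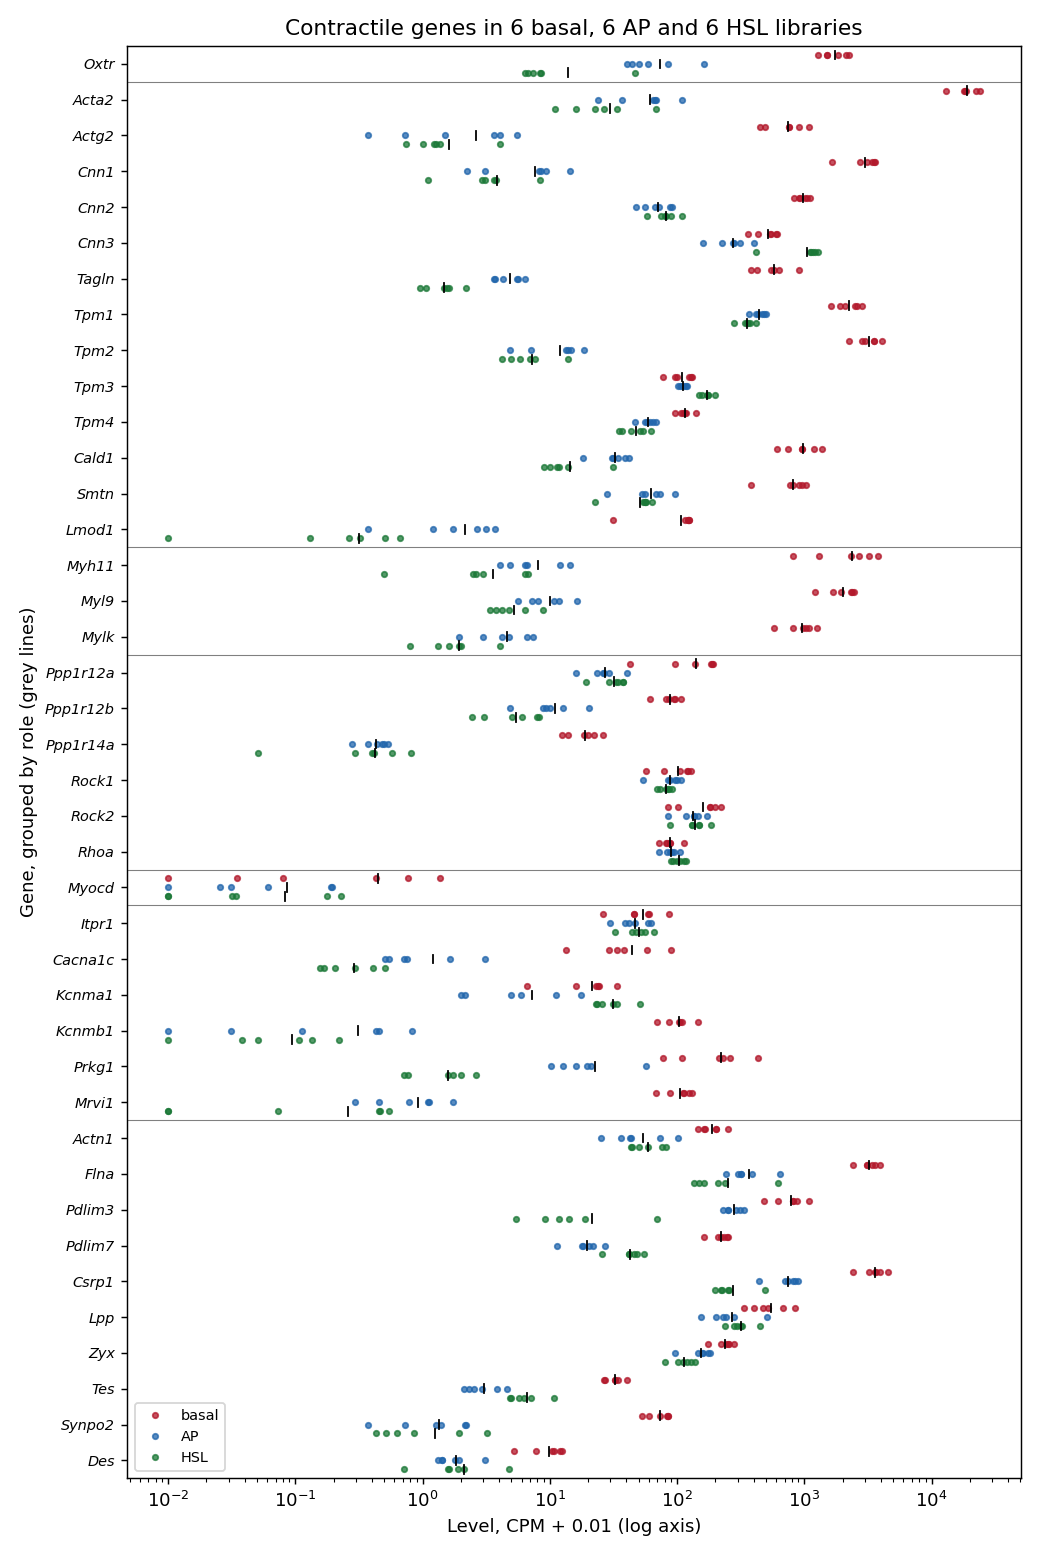
Level of each contractile gene in every library (CPM + 0.01, log axis), grouped by role from the receptor at the top to the cross-linkers at the bottom, with basal, AP and HSL libraries as points and the mean as a black tick. Basal libraries sit apart to the right for the smooth muscle genes (Acta2 from 12900 to 23994 CPM) and among the others for Rock1, Rock2, Rhoa and Itpr1. Srf, at 0 in all libraries, is not drawn.

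The oxytocin receptor gene, Oxtr (ENSMUSG00000049112, chromosome 6, 112473683 to 112489943, minus strand), is the entry point of the pathway. Oxtr had 1280 to 2257 CPM in basal (median 1679), 40.6 to 164 CPM in AP (median 54.7) and 6.32 to 46.7 CPM in HSL libraries (median 7.88). No library of 1 population reached those of the next, except that the AP range begins below the highest HSL library, that of sample 1. The fold change was log2 4.57 ± 0.55 (adjusted p = 1.88e-06) for basal over AP and log2 6.96 ± 0.61 (adjusted p = 2.52e-08) for basal over HSL. AP exceeded HSL by log2 2.39 ± 0.50 (adjusted p = 0.000936), with AP higher in 6 of 6 samples. Sample 1 was the highest library in both luminal populations, and without it the folds were 5.05, 7.97 and 2.92.

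Smooth muscle actin, Acta2 (ENSMUSG00000035783, chromosome 19, 34241090 to 34255590, minus strand), was the most abundant of the 41 per length of transcript. Its basal mean was 8701 ± 1764 CPM per kilobase of merged exons (SD, n = 6), followed by Csrp1 at 1822 ± 367, Myl9 at 1719 ± 416, Tpm2 at 1103 ± 223 and Cnn1 at 1097 ± 266, with Csrp1 and Myl9 within each other's spread, as Tpm2 and Cnn1 were. Acta2 had 12900 to 23994 CPM in basal (median 18602), 23.8 to 109 CPM in AP (median 65.4) and 11 to 68.9 CPM in HSL libraries (median 24.8). Acta2 alone took 1.34 to 2.27% of all counts in basal libraries. The basal range lies wholly above both luminal ranges, while those of AP and HSL overlap. Basal exceeded AP by a fold change of log2 8.28 ± 0.53 (adjusted p = 7.69e-10) and HSL by log2 9.32 ± 0.55 (adjusted p = 1.79e-10). AP exceeded HSL by log2 1.04 ± 0.39 (adjusted p = 0.0406), a call lost when sample 2, 3, 5 or 6 was left out (adjusted p = 0.115, 0.052, 0.147 and 0.185). Its relative Actg2, the enteric smooth muscle actin, had 452 to 1098 CPM in basal (median 763), 0.363 to 5.52 CPM in AP (median 2.55) and 0.727 to 4.06 CPM in HSL libraries (median 1.25). The fold change of Actg2 was log2 8.16 ± 0.69 (adjusted p = 2.28e-08) over AP and log2 8.83 ± 0.71 (adjusted p = 7.71e-09) over HSL. The coding sequences of the pair agree at 84.4% of bases, with a longest identical run of 29 bases.

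The calponins bind thin filaments, and they split by isoform. Cnn1, the smooth muscle isoform, had 1666 to 3575 CPM in basal (median 3250), 2.21 to 14.5 CPM in AP (median 8.4) and 1.1 to 8.38 CPM in HSL libraries (median 3.36). Basal libraries of Cnn1 lay far above all others, with a fold change of log2 8.62 ± 0.58 (adjusted p = 1.53e-09) over AP and log2 9.61 ± 0.61 (adjusted p = 3.88e-10) over HSL. Cnn2, found in muscle and other cells, had 826 to 1116 CPM in basal (median 965), 47.2 to 90.5 CPM in AP (median 69.8) and 57.6 to 110 CPM in HSL libraries (median 81.2). It was higher in basal by log2 3.79 ± 0.18 (adjusted p = 2.9e-11) over AP and log2 3.56 ± 0.18 (adjusted p = 3.85e-11) over HSL. Cnn3, the acidic calponin of many non-muscle cells, ran the other way in HSL: 361 to 605 CPM in basal (median 547), 160 to 401 CPM in AP (median 276) and 419 to 1271 CPM in HSL libraries (median 1148). HSL libraries were the highest for Cnn3, apart from that of sample 1, which lay within the basal range. Basal exceeded AP by log2 0.90 ± 0.24 (adjusted p = 0.00516) and lay below HSL, at log2 -1.03 ± 0.24 (adjusted p = 0.00139). Cnn3 shares 17.7% of its exon bases with the span of another gene, so its level carries some uncertainty.

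Tropomyosins lie along the actin filament. Tpm2, the beta chain of muscle, had 2243 to 4108 CPM in basal (median 3254), 4.89 to 18.7 CPM in AP (median 13.6) and 4.18 to 13.8 CPM in HSL libraries (median 6.41). The fold change was log2 8.05 ± 0.41 (adjusted p = 6.97e-11) over AP and log2 8.79 ± 0.43 (adjusted p = 2.31e-11) over HSL, and no luminal library came near a basal one. Tpm1, which makes muscle and non-muscle forms, had 1628 to 2830 CPM in basal (median 2301), 366 to 500 CPM in AP (median 450) and 278 to 417 CPM in HSL libraries (median 356). Tpm1 was thus expressed throughout and higher in basal by log2 2.35 ± 0.15 (adjusted p = 5.7e-10) over AP and log2 2.68 ± 0.15 (adjusted p = 8.84e-11) over HSL. Tpm3, mainly non-muscle in epithelia, had 77.5 to 131 CPM in basal (median 112), 101 to 120 CPM in AP (median 112) and 150 to 199 CPM in HSL libraries (median 173). It did not differ at the threshold between basal and AP (log2 -0.02 ± 0.12, adjusted p = 0.885) and was lower in basal than in HSL by log2 -0.65 ± 0.12 (adjusted p = 0.000136), with every basal library under every HSL library. Tpm4, a non-muscle form, was higher in basal by log2 0.97 ± 0.14 (adjusted p = 1.92e-05) over AP and log2 1.29 ± 0.14 (adjusted p = 4.15e-07) over HSL. It shares 49.4% of its span and 69.7% of its exon bases with another gene, and its counts, which carry no strand, are uncertain.

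The other thin filament genes were higher in basal than in both luminal populations. Tagln (transgelin, an actin cross-linker) had 382 to 909 CPM in basal (median 562), 3.61 to 6.41 CPM in AP (median 4.9) and 0.941 to 2.17 CPM in HSL libraries (median 1.51). Its fold change was log2 6.90 ± 0.28 (adjusted p = 5.78e-12) over AP and log2 8.62 ± 0.31 (adjusted p = 1.32e-12) over HSL. It shares 58% of its span and 67.9% of its exon bases, so its level is uncertain. Cald1 (caldesmon, which holds back myosin on actin) exceeded AP by log2 4.90 ± 0.34 (adjusted p = 1.88e-09) and HSL by log2 6.06 ± 0.36 (adjusted p = 1.69e-10). Smtn (smoothelin, an actin-binding protein of smooth muscle; 29% of the span shared) exceeded them by log2 3.70 ± 0.31 (adjusted p = 2.31e-08) and log2 3.98 ± 0.32 (adjusted p = 6.73e-09). Lmod1 (leiomodin, an actin nucleator of smooth muscle) had 31.3 to 124 CPM in basal (median 122), 0.364 to 3.7 CPM in AP (median 2.2) and 0 to 0.653 CPM in HSL libraries (median 0.283). In basal, sample 1 had the lowest Lmod1 level and the other 5 libraries ranged from 116 to 124 CPM. Its fold change was log2 5.65 ± 0.60 (adjusted p = 4.36e-07) over AP and log2 8.44 ± 0.70 (adjusted p = 1.21e-08) over HSL, and 9.18 over HSL without sample 1.

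The myosin motor and its kinase rose together in basal. Myh11, the smooth muscle heavy chain (ENSMUSG00000018830, chromosome 16, 14194535 to 14291372, minus strand), had 822 to 3768 CPM in basal (median 2501), 4.03 to 14.3 CPM in AP (median 6.5) and 0.484 to 6.7 CPM in HSL libraries (median 2.81). The spread among basal libraries was wide, 4.58 times between the lowest (sample 1) and the highest (sample 4), yet even the lowest was far above every luminal library. Its fold change was log2 8.20 ± 0.65 (adjusted p = 1.07e-08) over AP and log2 9.35 ± 0.68 (adjusted p = 2.33e-09) over HSL. Myl9, the regulatory light chain whose promoter is shown above, had 1222 to 2450 CPM in basal (median 2141), 5.64 to 16.3 CPM in AP (median 9.44) and 3.37 to 8.89 CPM in HSL libraries (median 4.51). It exceeded AP by log2 7.65 ± 0.36 (adjusted p = 1.86e-11) and HSL by log2 8.57 ± 0.37 (adjusted p = 6.28e-12). Mylk, the kinase that phosphorylates that light chain, had 580 to 1263 CPM in basal (median 1005), 1.94 to 7.4 CPM in AP (median 4.47) and 0.784 to 4.02 CPM in HSL libraries (median 1.76). Basal exceeded AP in Mylk by log2 7.70 ± 0.44 (adjusted p = 2.27e-10) and HSL by log2 8.93 ± 0.46 (adjusted p = 4.79e-11). For all 3 genes the basal libraries lay above all luminal ones.

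On the opposing side, 2 targeting subunits of the myosin phosphatase and its inhibitor were higher in basal. Ppp1r12a, the targeting subunit MYPT1, had 42.4 to 193 CPM in basal (median 162), 16.2 to 40.2 CPM in AP (median 26.4) and 19.2 to 37.9 CPM in HSL libraries (median 33.8), a fold change of log2 2.38 ± 0.31 (adjusted p = 4.63e-06) over AP and log2 2.14 ± 0.31 (adjusted p = 8.86e-06) over HSL. Ppp1r12b, the related subunit MYPT2, exceeded AP by log2 3.0 ± 0.33 (adjusted p = 7.64e-07) and HSL by log2 4.01 ± 0.35 (adjusted p = 2.24e-08). It shares 14.9% of its span and 45.5% of its exon bases with the span of another gene, so its level is uncertain. Ppp1r14a, which encodes an inhibitor protein of the phosphatase, was low, with 12.5 to 26.3 CPM in basal (median 19.3), 0.271 to 0.525 CPM in AP (median 0.448) and 0.0412 to 0.798 CPM in HSL libraries (median 0.401). Even so no luminal library reached a basal one, and the fold change was log2 5.47 ± 0.42 (adjusted p = 6.04e-09) over AP and log2 5.47 ± 0.42 (adjusted p = 4.07e-09) over HSL. The catalytic subunit gene Ppp1cb, which is not among the 41, was lower in basal than in AP (log2 fold change -1.09 ± 0.11, adjusted p = 2.58e-07; 26.1% of the span shared).

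RhoA, a small GTPase, and its kinases had overlapping ranges in the 3 populations. Rhoa had 72.7 to 114 CPM in basal (median 85.8), 72.6 to 106 CPM in AP (median 89.6) and 90 to 118 CPM in HSL libraries (median 102). The ranges overlap, with a fold change of log2 -0.02 ± 0.11 (adjusted p = 0.908) for basal over AP and log2 -0.22 ± 0.11 (adjusted p = 0.0988) for basal over HSL. Blocked by the sample number, the second was called lower in basal (-0.24, adjusted p = 0.0452), as it was without sample 1 (-0.33, adjusted p = 0.00609). Rhoa shares 11.7% of its exon bases with the span of another gene. Rock1 had 56.9 to 129 CPM in basal (median 113), 53.6 to 107 CPM in AP (median 92.2) and 69.5 to 91.9 CPM in HSL libraries (median 82.9). Its fold change was log2 0.21 ± 0.18 (adjusted p = 0.387) over AP and log2 0.33 ± 0.18 (adjusted p = 0.138) over HSL and the difference from HSL was called with the block (0.28, adjusted p = 0.0366) and without sample 1 (0.42, adjusted p = 0.00462). Rock2 had 84.8 to 220 CPM in basal (median 181), 84.6 to 172 CPM in AP (median 136) and 88.2 to 185 CPM in HSL libraries (median 141). It did not pass the test over AP (log2 0.28 ± 0.23, adjusted p = 0.34) or over HSL (log2 0.21 ± 0.23, adjusted p = 0.462). In samples 4 to 6 alone both kinases were called higher in basal than in AP (Rock1 0.32, adjusted p = 0.0217, and Rock2 0.55, adjusted p = 0.0102). They were also called higher than in HSL (Rock1 0.50, adjusted p = 0.00149, and Rock2 0.36, adjusted p = 0.0473). Rhoa was called lower in basal than in HSL in these samples (-0.32, adjusted p = 0.0334). In samples 1 to 3 alone neither kinase was called, and both folds over AP changed sign, as given at the end.

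The transcriptional drivers could not be followed in these counts. Srf was listed at 0 in all 18 libraries. Its span (chromosome 17, 46548329 to 46556175) lies wholly inside another annotated gene, and of 1264 protein-coding genes with a wholly shared span 89.7% were at 0 in all libraries, against 22.4% of those with no overlap. The zero is therefore no measure of Srf expression. Myocd, the cofactor myocardin, had 0 to 1.37 CPM in basal (median 0.244), 0 to 0.185 CPM in AP (median 0.036) and 0 to 0.22 CPM in HSL libraries (median 0.0231). It had counts in 5 of 6 basal, 5 of 6 AP and 4 of 6 HSL libraries, with 1 or 2 counts in 2 of the basal ones, and was too low to test.

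Among the channels and the cyclic GMP branch, 5 of the 6 genes were called higher in basal than in AP (23.1% of all genes were). Against HSL 4 of the 6 were (30.6%). Itpr1 passed neither test and Kcnma1 only that against AP. Cacna1c, the pore of the L-type calcium channel, had 13.3 to 90.2 CPM in basal (median 36.2), 0.497 to 3.07 CPM in AP (median 0.725) and 0.145 to 0.494 CPM in HSL libraries (median 0.24). The fold change was log2 5.19 ± 0.55 (adjusted p = 4.4e-07) over AP and log2 7.31 ± 0.63 (adjusted p = 1.68e-08) over HSL. Kcnmb1, the beta subunit that tunes the BK potassium channel to calcium in smooth muscle, had 69.7 to 145 CPM in basal (median 105), 0 to 0.814 CPM in AP (median 0.261) and 0 to 0.212 CPM in HSL libraries (median 0.069). Its fold change was log2 8.43 ± 0.70 (adjusted p = 1.94e-08) over AP and log2 10.11 ± 0.78 (adjusted p = 5.08e-09) over HSL, and 10.88 over HSL without sample 1. Its span lies wholly within another gene, so these counts are uncertain. Kcnma1, the pore of the same channel, did not follow it: 6.56 to 33.8 CPM in basal (median 23.6), 1.99 to 17.5 CPM in AP (median 5.44) and 23.2 to 50.7 CPM in HSL libraries (median 28.3). Kcnma1 was higher in basal than in AP (log2 1.55 ± 0.47, adjusted p = 0.0118), a call lost without sample 4 or 5 (adjusted p = 0.0509 and 0.0513), and did not differ at the threshold from HSL (log2 -0.55 ± 0.46, adjusted p = 0.319).

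Prkg1, the cyclic GMP-dependent kinase, had 77.8 to 430 CPM in basal (median 221), 10.3 to 56.6 CPM in AP (median 17.8) and 0.705 to 2.63 CPM in HSL libraries (median 1.65). It stepped down across the 3 populations without overlap, by log2 3.28 ± 0.48 (adjusted p = 1.87e-05) for basal over AP and log2 7.12 ± 0.58 (adjusted p = 9.36e-09) for basal over HSL. Mrvi1, which encodes IRAG, the substrate that couples this kinase to the inositol trisphosphate receptor, exceeded AP by log2 6.87 ± 0.60 (adjusted p = 3.73e-08) and HSL by log2 8.63 ± 0.67 (adjusted p = 4.89e-09). The receptor itself, Itpr1, had 26.4 to 86.2 CPM in basal (median 52.3), 29.8 to 62.1 CPM in AP (median 44.5) and 32.7 to 66.5 CPM in HSL libraries (median 50). Its populations overlap, with a fold change of log2 0.22 ± 0.24 (adjusted p = 0.493) for basal over AP and log2 0.11 ± 0.24 (adjusted p = 0.714) for basal over HSL.

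All 10 cross-linkers, LIM proteins and the intermediate filament gene were called higher in basal in both comparisons (23.1 and 30.6% of all genes were). Their median log2 fold change (2.35 over AP, 2.33 over HSL) was smaller than that of the 13 thin filament genes (4.90 and 6.06). Flna (filamin A, an actin cross-linker) had 2423 to 3906 CPM in basal (median 3249), 243 to 647 CPM in AP (median 317) and 137 to 617 CPM in HSL libraries (median 186). Its fold change was log2 3.14 ± 0.35 (adjusted p = 8.57e-07) over AP and log2 3.69 ± 0.36 (adjusted p = 9.49e-08) over HSL. Csrp1, a LIM protein of smooth muscle, had 2401 to 4550 CPM in basal (median 3647), 438 to 895 CPM in AP (median 778) and 199 to 492 CPM in HSL libraries (median 239). It was abundant in AP as well, and basal exceeded AP by log2 2.27 ± 0.23 (adjusted p = 2.8e-07) and HSL by log2 3.70 ± 0.25 (adjusted p = 7.73e-10). Pdlim3, a PDZ and LIM protein that binds alpha-actinin, had 486 to 1084 CPM in basal (median 822), 229 to 336 CPM in AP (median 271) and 5.44 to 69.8 CPM in HSL libraries (median 13). The 3 populations do not overlap in Pdlim3, with a fold change of log2 1.49 ± 0.45 (adjusted p = 0.0106) over AP and log2 5.18 ± 0.52 (adjusted p = 1.34e-07) over HSL, and 6.16 over HSL without sample 1.

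Of the rest, Pdlim7 exceeded AP by log2 3.51 ± 0.21 (adjusted p = 3.14e-10), Actn1 (alpha-actinin) by log2 1.80 ± 0.28 (adjusted p = 4.11e-05) and Synpo2 (synaptopodin 2, an actin bundler) by log2 5.78 ± 0.54 (adjusted p = 8.75e-08). Over HSL the fold was log2 2.36 ± 0.20 (adjusted p = 1.21e-08) for Pdlim7 and log2 1.67 ± 0.28 (adjusted p = 5.51e-05) for Actn1. For Synpo2 it was log2 5.84 ± 0.54 (adjusted p = 4.94e-08), and 6.50 without sample 1. Differences were smaller in 2 focal adhesion genes. Lpp was higher in basal than in AP by log2 1.01 ± 0.27 (adjusted p = 0.00431) and than in HSL by log2 0.78 ± 0.26 (adjusted p = 0.0174), the second call being lost without sample 4 or 6 (adjusted p = 0.063 and 0.0521). Zyx (zyxin, with 28% of the span and 41.2% of exon bases shared) was higher by log2 0.63 ± 0.16 (adjusted p = 0.0029) and log2 1.07 ± 0.16 (adjusted p = 1.34e-05). Tes (testin) exceeded AP by log2 3.40 ± 0.24 (adjusted p = 2.59e-09), but its span is wholly shared and its counts are uncertain. Des (desmin, the muscle intermediate filament) was low, with 5.26 to 12.4 CPM in basal (median 10.6), 1.31 to 3.09 CPM in AP (median 1.61) and 0.7 to 4.76 CPM in HSL libraries (median 1.74). It was higher in basal by log2 2.43 ± 0.37 (adjusted p = 3.33e-05) over AP and log2 2.21 ± 0.37 (adjusted p = 5.07e-05) over HSL.

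Contractile genes also mark the mural cells of vessels, so other lineages were read beside them. Of all genes 23.1% were higher and 21.5% lower in basal than in AP, and 30.6 and 27.8% than in HSL. The 12 pericyte and vascular smooth muscle markers summed to 173 to 303 CPM in basal, 126 to 226 in AP and 83.3 to 162 across HSL libraries. Of the 11 tested 9 were higher in basal than in AP and 1, Notch3, lower (median log2 fold change 1.96). Against HSL 10 were higher and 1 lower (median 2.86). None was at 0 throughout; Rgs5, a defining pericyte gene, averaged 26 CPM in basal, 5.04 CPM in AP and 2.75 CPM in HSL, against 19108, 61.6 and 29.9 CPM for Acta2. The 6 endothelial markers summed to 49.8 to 150 CPM in basal, 19.5 to 62.3 in AP and 14.1 to 34 in HSL, and all 6 were called higher in basal in both comparisons. The 5 leukocyte markers summed to 202 to 954 CPM in basal, 12.6 to 222 in AP and 10.7 to 709 in HSL, with 2 called higher in basal than in AP and 1 than in HSL. The 7 fibroblast markers summed to 579 to 919 CPM in basal, 504 to 1277 in AP and 32.6 to 90.6 in HSL; 5 were lower and 1 higher in basal than in AP, and all 7 were higher than in HSL. None of these markers was at 0 throughout. Skeletal muscle markers summed to at most 5.52 CPM in any library. Their part in the contractile differences was not tested.

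The luminal levels can be set against those of basal keratins, as a share of the basal mean. Krt14, Krt5 and Krt17 stood at 0.29, 0.289 and 0.395% of it in AP and at 0.136, 0.217 and 0.2% in HSL, and the basal transcription factor gene Trp63 at 0.674 and 1.04%. Trp63 in HSL varied from 0.0332 to 2.92% between samples. Of the 40 contractile genes with counts 6 lay at or under the highest of the 3 keratins in AP and 6 in HSL, and with Trp63 as the limit 8 in AP and 14 in HSL. Near these limits, Acta2 stood at 0.322% in AP and 0.156% in HSL, Cnn1 at 0.255 and 0.127%, Myh11 at 0.34 and 0.153%, and Tpm2 at 0.377 and 0.226%. Oxtr (4.2% in AP and 0.799% in HSL) and Prkg1 (10.3 and 0.713%) lay above all 4 in AP, and in HSL above the keratins but under Trp63. Other genes lay above all 4 in both: Pdlim3 35.5 and 2.75%, Csrp1 20.7 and 7.69%, and Flna 11.4 and 7.76%. In the HSL library of sample 1 Acta2 stood at 0.534% of the basal library of that sample and Krt14 at 0.492%, while Oxtr stood at 3.65%, Pdlim3 at 14.4% and Flna at 17.2%.

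**Figure D2:**
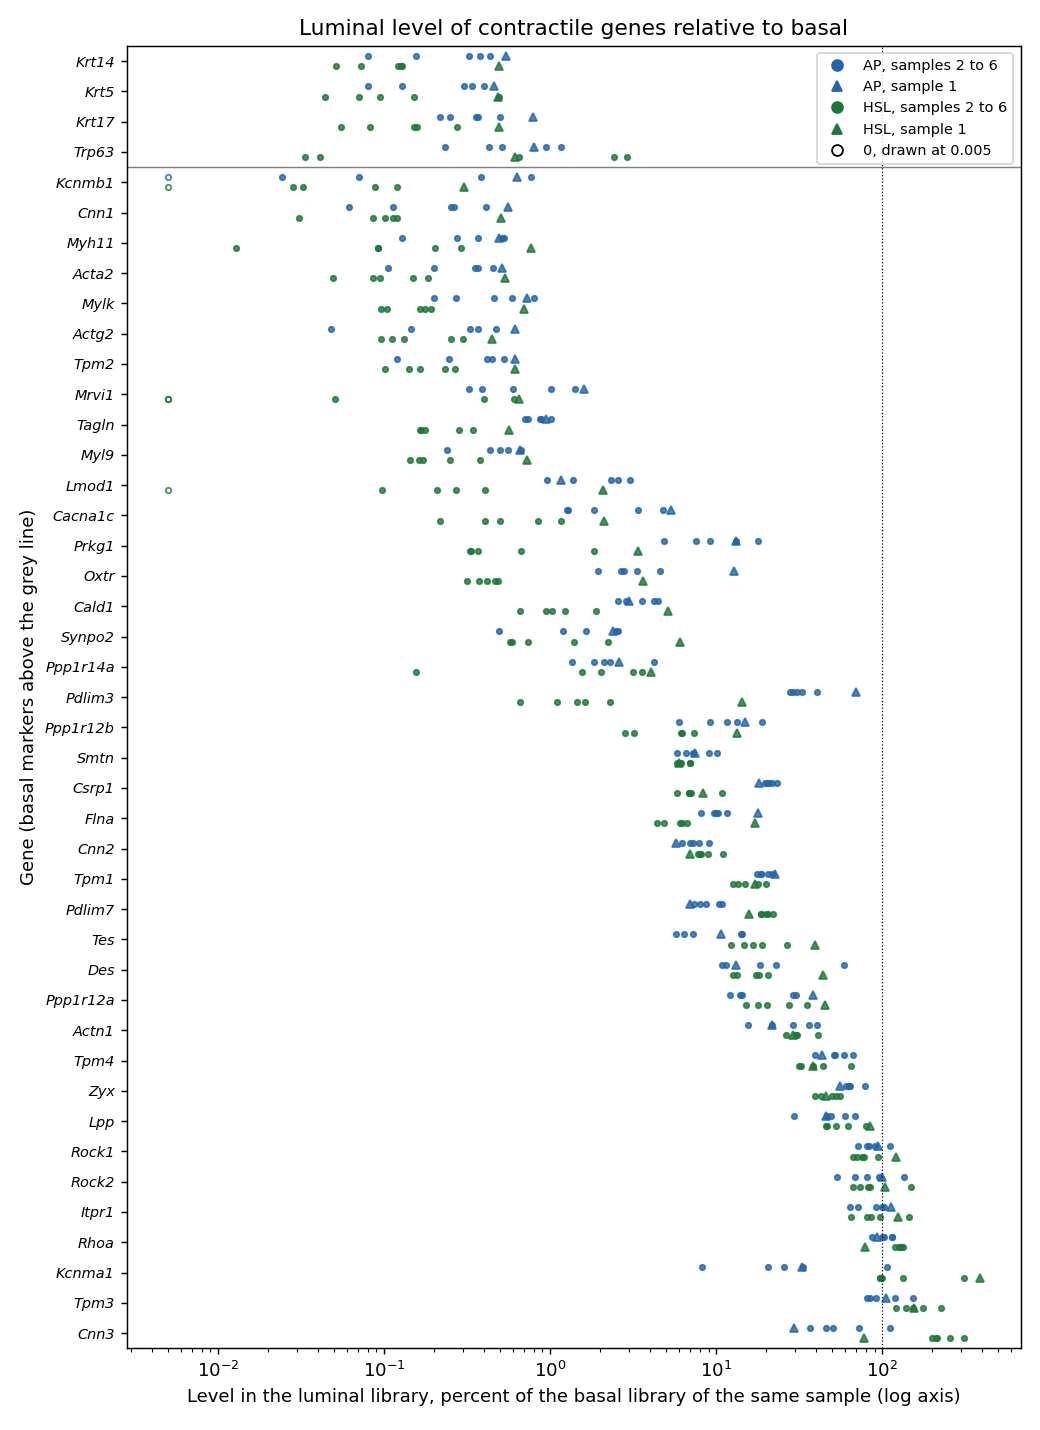
Level of each contractile gene, and of 4 basal markers above the grey line, in every AP and HSL library as percent of the basal library of the same sample number (log axis). Acta2, Cnn1, Myh11 and Tpm2 lie with Krt14 and Krt5 at under 1%, and Rock1, Rock2, Rhoa and Itpr1 lie near 100%. Sample 1 is drawn as triangles, and open points mark a level of 0.

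Shares within protein families give the make-up of each family in each population, on the scale of CPM per kilobase of merged exons. A share can fall only because another gene of the family rose, so a lower share is not a lower level. The 90 differences in share over 9 families were tested by 2-sided exact permutation over 6 against 6 libraries (smallest possible p = 0.00216), with Benjamini-Hochberg adjustment, and 61 were called. The shares of a family sum to the whole, so tests within a family are tied and the 61 calls are not independent. Acta2 made up 86.6 ± 4.18% of the 4 actins in basal, 5.72 ± 3.05% in AP and 2.42 ± 1.42% across HSL libraries (SD, n = 6 each; exact permutation test, adjusted p = 0.00453 for both basal differences). Actb, the cytoplasmic beta actin, made up 8.42 ± 2.93% in basal, 92 ± 3.07% in AP and 95.9 ± 1.46% across HSL libraries. Actg1 was counted at only 21.9, 25.9 and 20.9 CPM on average in basal, AP and HSL, so shares among actins are uncertain. In the myosin II heavy chains Myh11 held 85.6 ± 7.07% in basal, 1.8 ± 1.05% in AP and 0.655 ± 0.641% in HSL, while non-muscle Myh14 held 2.07 ± 0.73%, 63.1 ± 8.13% and 64.9 ± 6.53% in the same order (exact permutation test, adjusted p = 0.00453 for each basal difference).

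The calponin and tropomyosin families were divided in the same manner. Cnn1 held 65.3 ± 5.53% of calponin in basal, 2.55 ± 1.82% in AP and 0.521 ± 0.663% across HSL libraries, and Cnn3 held 10.5 ± 2.89%, 73.7 ± 4.9% and 90.1 ± 3.31%. The share of Cnn2 was 24.2 ± 3.13% in basal and 23.8 ± 3.86% in AP (exact permutation test, adjusted p = 0.876), but 9.37 ± 2.7% in HSL (adjusted p = 0.00453 against basal). Tpm2 held 72.3 ± 1.28% of tropomyosin in basal, 3.55 ± 1.51% in AP and 2.38 ± 1.29% across HSL libraries. Tpm1 held 22.9 ± 0.626% in basal, 58.1 ± 3.99% in AP and 51.1 ± 4.32% in HSL. Tpm3 held 1.19 ± 0.18%, 15.6 ± 0.904% and 26.5 ± 2.34%. Calponin coding sequences agree at 67.8 to 70.0% of bases and those of tropomyosins at 70.2 to 77.4%. The overlaps of Cnn3 and Tpm4 with other genes leave the shares in both families uncertain.

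**Figure D3:**
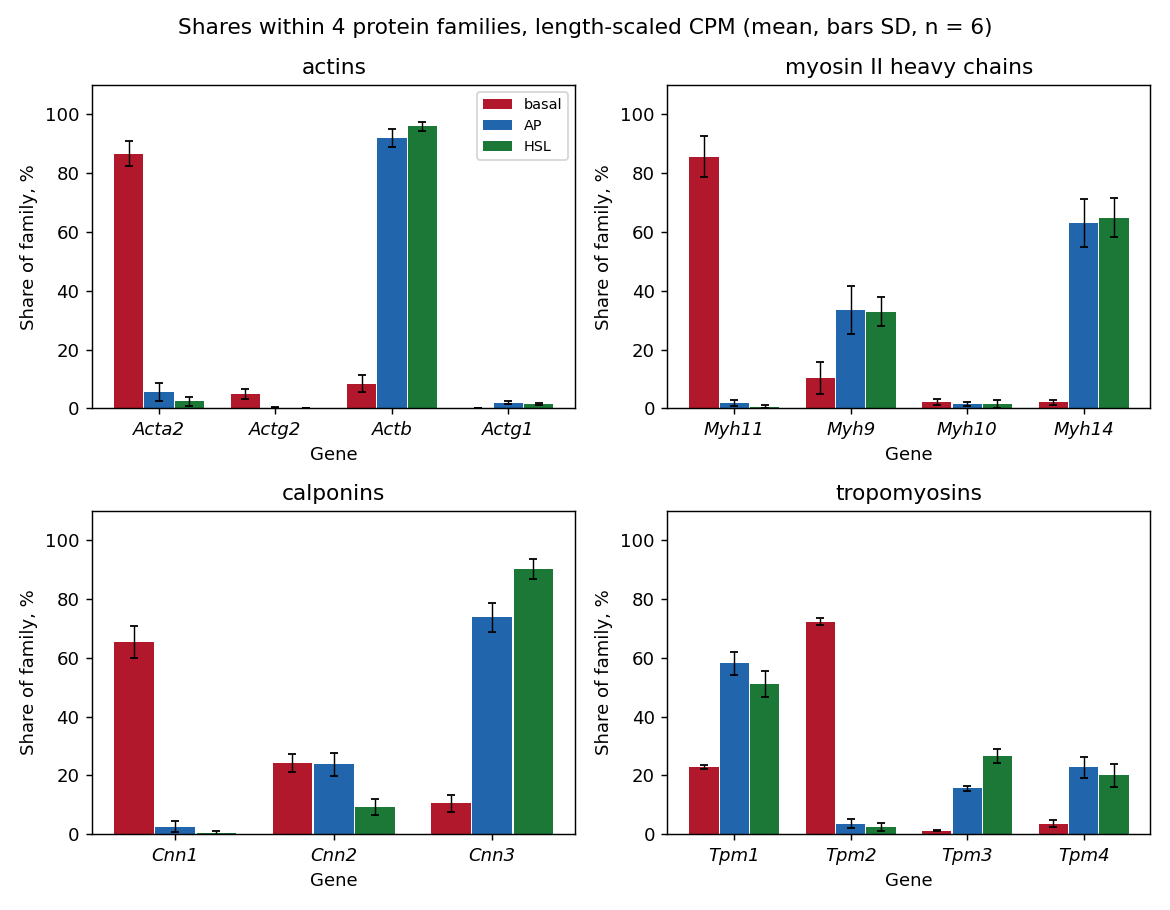
Share of each gene in the length-scaled CPM of its family, for actins, myosin II heavy chains, calponins and tropomyosins; bars are means of 6 libraries in basal, AP and HSL and error bars are SDs. Acta2 (86.6%), Myh11 (85.6%), Cnn1 (65.3%) and Tpm2 (72.3%) lead in basal, and Actb, Myh14, Cnn3 and Tpm1 lead in both luminal populations.

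Other families differed in pattern. Rock1 held 33.3 ± 2.94% of the sum of Rock1 and Rock2 in basal, 33.9 ± 2.37% in AP and 31.5 ± 4.43% in HSL, and no difference was called (exact permutation test, adjusted p = 0.705 for basal against AP, 0.485 for basal against HSL). Among inositol trisphosphate receptors Itpr1 held 33 ± 9.54% in basal, 12.7 ± 2.09% in AP and 15.9 ± 3.25% across HSL libraries (exact permutation test, adjusted p = 0.00847 and 0.0191 for basal against AP and HSL). Itpr3 had the highest mean share in basal (43.7 ± 15%), against 34.6 ± 10.8% in AP and 71.1 ± 4.08% in HSL. Itpr2 led in AP with 52.7 ± 12.5%, against 23.3 ± 5.9% in basal and 13 ± 3.45% in HSL. Flna made up 93.5 ± 1.31% of filamin in basal, 58.3 ± 9.86% in AP and 50.3 ± 13.1% in HSL. Actn4 was the main alpha-actinin everywhere (89.9, 96 and 94.5% in basal, AP and HSL), and Actn1 held 9.9 ± 3.03%, 3.97 ± 2.39% and 5.5 ± 2%.

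Between the luminal populations the genes did not move as a block. In AP 14 of the 39 were higher than in HSL (20.1% of all genes were), 5 were lower (19.8%) and 20 were not called, with a median log2 fold change of 0.43, against 0.01 for all genes. Scaling by library totals alone gave 16 and 5, while it moved the split over all genes to 4043 higher and 2234 lower, against 3315 and 3256 with TMM. In 4 genes every AP library exceeded every HSL library (11% of all genes), namely Tagln, Cacna1c, Prkg1 and Pdlim3, and in 4 every AP library was below (9.56%), namely Cnn3, Tpm3, Kcnma1 and Tes.

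The largest of these differences were in Prkg1 (log2 3.84 ± 0.51, adjusted p = 1.17e-05) and Pdlim3 (log2 3.69 ± 0.49, adjusted p = 1.21e-05, and 4.51 without sample 1). Lmod1 (log2 2.79 ± 0.60, adjusted p = 0.00126) came next and stood at 3.56 without sample 1. Cacna1c exceeded HSL by log2 2.11 ± 0.54 (adjusted p = 0.00442), Tagln by log2 1.72 ± 0.24 (adjusted p = 1.8e-05), Csrp1 by log2 1.43 ± 0.23 (adjusted p = 7.43e-05) and Cald1 by log2 1.16 ± 0.29 (adjusted p = 0.00379). These, with Oxtr, are the 8 genes whose call held with each sample number left out in turn. The other 6, Acta2, Myl9, Mylk, Ppp1r12b, Mrvi1 and Zyx, lost the call when at least 1 number was left out, and without sample 5 all 6 were lost, leaving 8 genes higher. Lower in AP were Kcnma1 (log2 -2.10 ± 0.48, adjusted p = 0.00188), Cnn3 (log2 -1.93 ± 0.25, adjusted p = 9.59e-06), Pdlim7 (log2 -1.14 ± 0.19, adjusted p = 0.000121), Tes (log2 -1.11 ± 0.22, adjusted p = 0.000685) and Tpm3 (log2 -0.62 ± 0.12, adjusted p = 0.000432).

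Blocked by the sample number, since same-numbered libraries deviated together, 18 genes were higher in AP and 6 lower. The block added Tpm1 (0.33, adjusted p = 0.00897), Tpm4 (0.34, 0.0291), Smtn (0.27, 0.0483), Flna (0.67, 0.0125) and, lower in AP, Cnn2 (-0.24, 0.0437). Without sample 1, 20 genes were higher and 6 lower, the added ones being Cnn1, Tpm1, Tpm2, Tpm4, Myh11, Flna and, lower in AP, Rhoa. Markers of other cells differed between the same libraries. The 7 fibroblast markers summed to 504 to 1277 CPM in AP and 32.6 to 90.6 CPM across HSL libraries. All 7 were higher in AP, where 20.1% of all genes were, and none of the 7 was at 0 throughout. The summed 6 basal markers did not overlap either (140 to 236 CPM in AP, 25.2 to 119 CPM in HSL), but only 2 of the 6 were called higher in AP and 4 were not called. Sparc made up most of that sum in AP (mean 129 CPM, against 29.9 CPM in HSL), while Krt5 was not called (log2 0.40 ± 0.51, adjusted p = 0.573) and neither was Trp63 (log2 -0.65 ± 0.66, adjusted p = 0.464). The part of either in the differences of contractile genes was not tested.

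**Figure D4:**
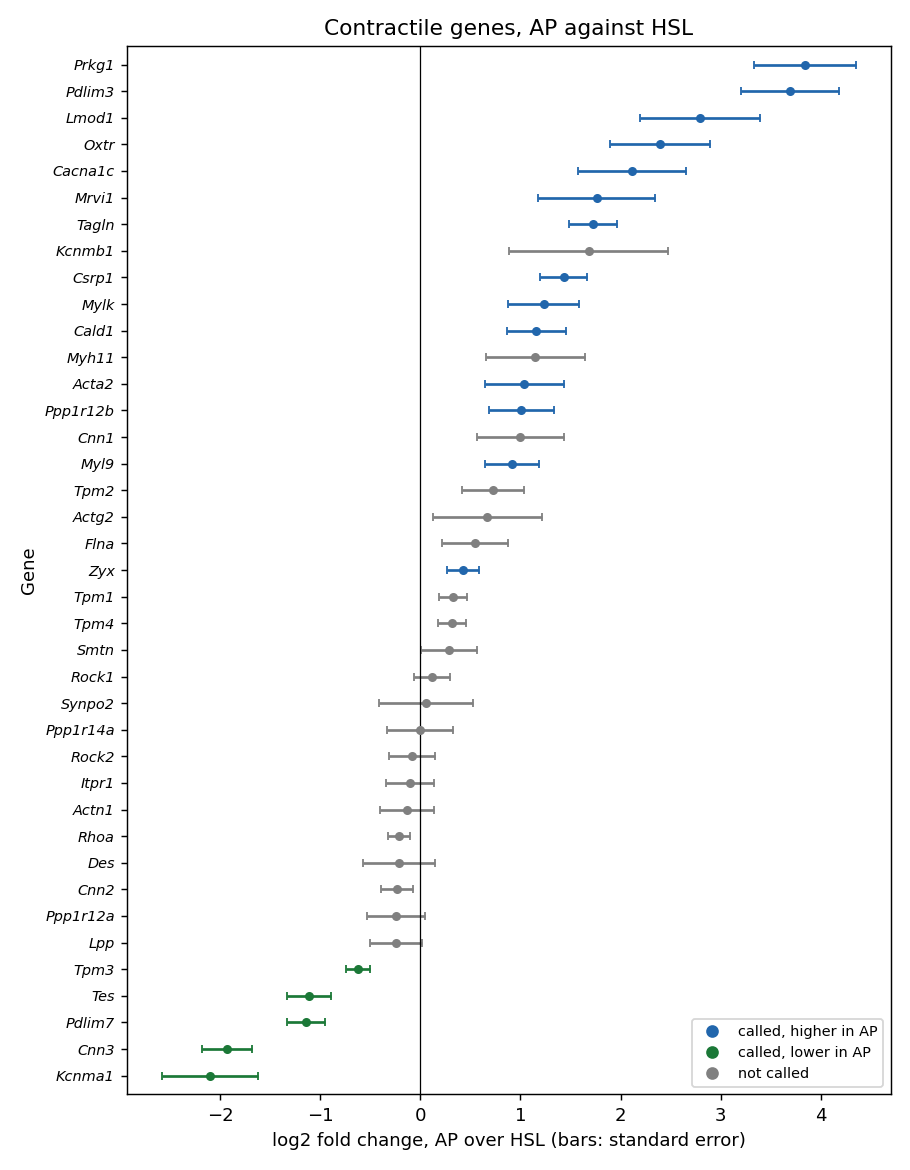
Log2 fold change of AP over HSL for the 39 tested genes, with standard errors, sorted by size. Prkg1 (3.84) and Pdlim3 (3.69) lie farthest to the right, and Kcnma1 (-2.10) and Cnn3 (-1.93) farthest to the left; grey points were not called.

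Among the basal libraries the apparatus varied somewhat more than all genes above the same floor of abundance. The median coefficient of variation was 23.1% for the 34 contractile genes at 50 CPM or more in basal. It was 18.3% for all 4431 genes at that level. Abundance was not matched above that floor, and the part of sample 1 in this difference was not tested. Sample 1 had the lowest level in 29 of the 40 genes with counts, where 26.7% of all tested genes were lowest in that library. At 50 CPM or more it was lowest in 27 of the 34, against 35.6% of all genes at that level. Acta2 there was at 12900 CPM, against 18111 to 23994 CPM in the other 5, and Myh11 at 822 CPM against 1299 to 3768. Flna and Tpm4 were not low in it: Tpm4 was highest there, at 141 CPM. Krt14 was also lowest in that library (3902 CPM, against 7121 to 9748), as were the summed luminal markers (739 CPM, against 1127 to 2603). Other basal markers were not low there: Krt5 was at 3070 CPM, against 2874 to 3790 in the other 5, Krt17 at 4549 against 3958 to 6973, and Trp63 at 537 against 303 to 569. The summed leukocyte markers were highest in that library (954 CPM, against 202 to 799). The part of these markers in the low levels was not tested. The widest spreads were those of Cacna1c (6.79 times from lowest to highest), Prkg1 (5.52) and Kcnma1 (5.14), each highest in sample 3.

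**Figure D5:**
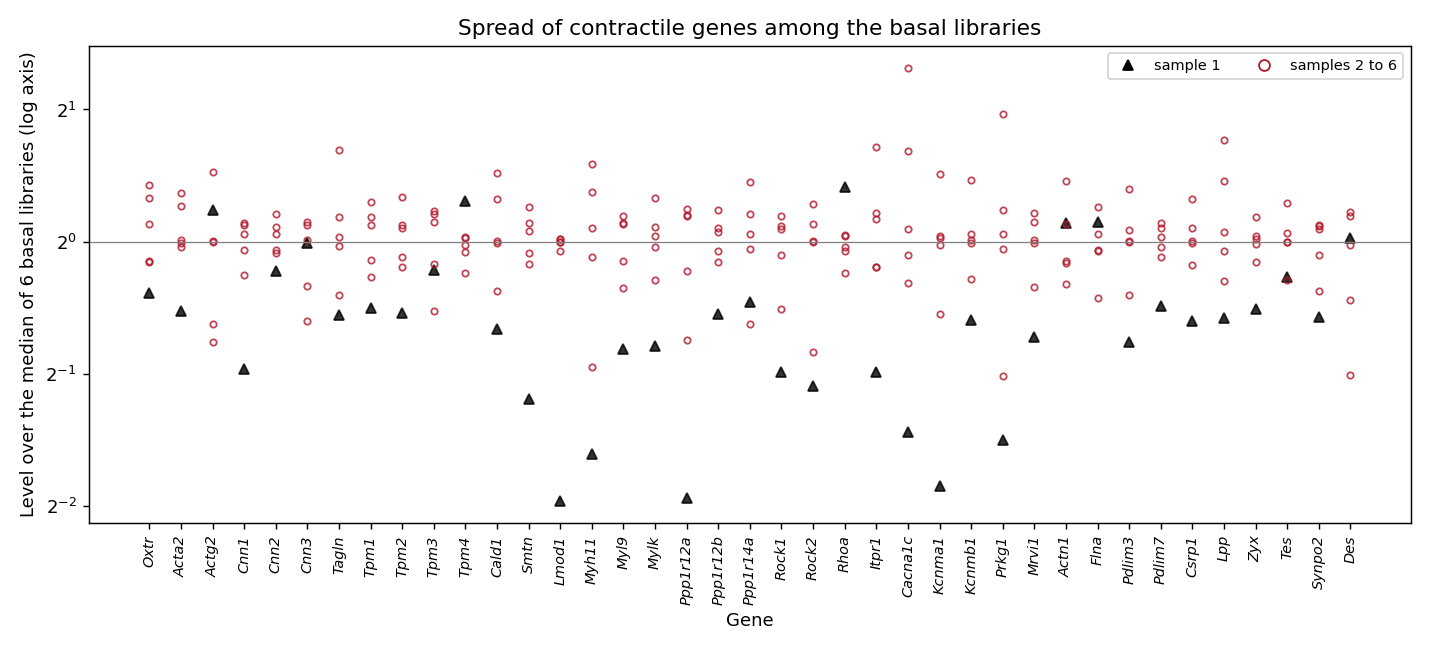
Level of each contractile gene in the 6 basal libraries, divided by the median of the 6 (log axis). Sample 1 (black triangles) is the lowest library for 29 of 40 genes, among them Acta2, Cnn1, Lmod1 and Myh11; Myocd and Srf are not drawn.

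Other genes of the same pathways, from lists written for this description, were read in basal against AP, where 23.1% of all genes were higher and 21.5% lower, and in basal against HSL (30.6 and 27.8%). Of 29 genes of oxytocin receptor coupling and calcium release 28 were tested, 14 were higher in basal, 6 lower and 8 not called against AP, with a median log2 fold change of 0.43, and against HSL 10 were higher and 8 lower (median -0.01). The share lower against AP was near that of all genes. Values of named genes in this paragraph are those against AP unless HSL is named. Orai1, the pore of store-operated calcium entry, was lower in basal (log2 fold change -2.46 ± 0.20, adjusted p = 1.32e-08), while its activator Stim1 was higher (log2 fold change 1.86 ± 0.23, adjusted p = 3.08e-06). Itpr2 was lower (log2 fold change -2.44 ± 0.33, adjusted p = 9.29e-06). Gna11, a Gq-class alpha subunit, was not called (log2 fold change 0.23 ± 0.10, adjusted p = 0.072). Gnaq, the other one and named after its value was seen, was higher (log2 fold change 0.74 ± 0.17, adjusted p = 0.00133). Against HSL, Itpr2 (-0.07 ± 0.32, adjusted p = 0.872) and Stim1 (0.47 ± 0.23, adjusted p = 0.0792) were not called. Orai1 (-2.20 ± 0.20, adjusted p = 2.9e-08) and Gna11 (-0.47 ± 0.10, adjusted p = 0.000641) were lower in basal than in HSL. Gnaq was higher than in HSL (1.33 ± 0.17, adjusted p = 2.39e-06). Of 8 tested partners of the calcium and BK channels 7 were higher and none lower against AP (median 2.79), and 6 higher and 1 lower against HSL (4.13). Those against AP were led by Cacna2d1 (log2 fold change 6.63 ± 0.49, adjusted p = 4.23e-09), Cacna1d (log2 fold change 3.82 ± 0.42, adjusted p = 5.96e-07) and Cacna1g (log2 fold change 5.49 ± 0.75, adjusted p = 8.97e-06). Cacnb3 was not called against AP (log2 fold change 0.30 ± 0.17, adjusted p = 0.177) and was lower in basal than in HSL (-1.27 ± 0.18, adjusted p = 6.08e-06).

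In the cyclic GMP list 8 of 11 were higher and none lower against AP (median 1.91), and 8 higher and 1 lower against HSL (2.57). Against AP they were led by the natriuretic peptide receptor genes Npr1 (log2 fold change 4.20 ± 0.47, adjusted p = 9.22e-07) and Npr2 (log2 fold change 1.91 ± 0.23, adjusted p = 1.82e-06), which share 36.1 and 49.7% of their spans, and by the phosphodiesterase gene Pde3a (log2 fold change 3.06 ± 0.46, adjusted p = 2.69e-05). Pde5a, the cyclic GMP phosphodiesterase, was not called (log2 fold change -0.16 ± 0.21, adjusted p = 0.583; 30.7% shared).

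Of 10 tested genes of non-muscle actin and myosin 5 were higher in basal, 2 lower and 3 not called against AP (median 0.66), and the same numbers against HSL (1.09). The values of named genes are those against AP. Dstn (destrin, an actin-depolymerising protein) and Myl6 (the essential light chain) were higher (log2 fold change 2.06 ± 0.13, adjusted p = 5.97e-10 and log2 fold change 1.78 ± 0.19, adjusted p = 5.53e-07), and Tmod3 (tropomodulin, which caps filaments) was lower (log2 fold change -1.43 ± 0.10, adjusted p = 2.52e-09). Of 14 SRF cofactors and related regulators 8 were higher, 1 lower and 5 not called against AP (median 1.33), and 10 higher and 0 lower against HSL (1.02). The ternary complex factor gene Elk3 (log2 fold change 1.67 ± 0.15, adjusted p = 5.38e-08; 30.8% shared), Mef2c (log2 fold change 5.11 ± 0.56, adjusted p = 6.05e-07) and Nfatc4 (log2 fold change 4.04 ± 0.52, adjusted p = 3.99e-06) led, and Klf4 was not called (log2 fold change -0.30 ± 0.32, adjusted p = 0.47). Mrtfa, the myocardin-related cofactor of SRF and named after its value was seen, was higher (log2 fold change 1.65 ± 0.31, adjusted p = 0.000244). Of 30 tested dense plaque, costamere and LIM protein genes 16 were higher, 6 lower and 8 not called against AP (median 0.71), and 21 higher and 4 lower against HSL (1.55). Cavin1, a coat protein of caveolae, and Jph2, which ties the endoplasmic reticulum to the cell membrane in muscle, were higher (log2 fold change 3.85 ± 0.18, adjusted p = 1.46e-11 and log2 fold change 7.92 ± 0.56, adjusted p = 2.46e-09), and the adaptor gene Sorbs2 was lower (log2 fold change -2.73 ± 0.18, adjusted p = 8.91e-10; 48.2% shared).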

How the data were processed

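RNA of sorted cells was made into complementary DNA from 2 ng by Smart-Seq V4 chemistry and into sequencing libraries by Nextera XT, per the labels' protocols; this chemistry keeps no strand. The authors deposited whole-number counts per gene, RPKM values and a gene width for each library, per the file headers; only the counts were used, and 147 of 52636 identifiers without a GENCODE M21 match (0.00303 to 0.00677% of counts) were left out. The submitters' processing notes name GRCm38; aligner and counter are not given in the sources consulted. Genes whose span lies inside another gene are mostly at 0, so levels of genes with a shared span are uncertain.

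Counts were filtered (filterByExpr, minimum count 10) and scaled (TMM), and the 18 libraries went into 1 robust quasi-likelihood fit, with a term for each population, in edgeR 4.0.16 in R 4.3.3, with Benjamini-Hochberg adjustment over 16471 genes and a threshold of 0.05. DESeq2 1.42.0 was an alternative. Tables were made with Python 3.11.15 and pandas 2.3.3. The model was tested on simulated counts with known changes. Totals of 26516293 to 91095830 counts per library set the precision. Same-numbered libraries departed from their population means together in all 18 pairs (r 0.13 to 0.63, across genes). In sample 6 (r 0.13 to 0.17) the same number was not the best match both ways for any pair of populations. The main tests left this pairing out, and the number as a block was an alternative. The paired sign-flip test of shares was likewise an alternative, with a smallest possible p of 0.0312. The labels do not say whether each number is 1 animal. All 41 genes are named, and of each pathway list described up to 3 called genes with the smallest adjusted p and up to 2 not called. The genes and lists were chosen with earlier results of these data known. The results of 1 pathway list are not reported here.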

Additional observations from a re-analysis of the deposited data

Results flagged for a closer look

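In 120 groups of 6 libraries (each gene in each population) the lowest or highest library was compared with the gap to its neighbour, and 18 groups had a library whose gap exceeded Dixon's 95% critical value for the range. The nominal rate of such flags is about 1 in 20 groups. The groups come from the same 18 libraries and are not independent, and the share flagged over all genes was not computed. In 14 of the 18 groups the library was that of sample 1, whose libraries also stood apart over all genes.

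In HSL libraries sample 1 was set apart as high in Oxtr (46.7 CPM, against 6.32 to 8.56 in the others), Actg2 (4.06 against 0.727 to 1.35), Cnn1 (8.38 against 1.1 to 3.75), Tpm2 (13.8 against 4.18 to 7.62), Cald1 (31.2 against 9.06 to 13.9), Mylk (4.02 against 0.784 to 1.98), Flna (617 against 137 to 238), Pdlim3 (69.8 against 5.44 to 19) and Des (4.76 against 0.7 to 2.09). In the same library Cnn3 was low (419 CPM, against 1108 to 1271), as was Smtn (22.7 against 54 to 63.3). That library also had the highest summed leukocyte markers (709 CPM, against 10.7 to 186) and the lowest summed luminal markers (13556 CPM, against 24638 to 35297) of the HSL libraries; their part was not tested. Among AP libraries sample 1 was high in Oxtr (164 CPM, against 40.6 to 84.2) and Flna (647 against 243 to 391). The same markers stood apart there too, at 222 CPM for leukocytes (against 12.6 to 130) and 5922 CPM for luminal genes (against 15149 to 16400). Among basal libraries it was low in Lmod1 (31.3 CPM, against 116 to 124).

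Sample 3 was high among AP libraries in Prkg1 (56.6 CPM, against 10.3 to 21) and Lpp (506 against 154 to 278). Csrp1 was high in the HSL library of sample 2 (492 CPM, against 199 to 256). Des was high in the AP library of sample 6 (3.09 CPM, against 1.31 to 1.91).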

How the results depend on the processing

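The counts of contractile genes called held within 1.5 times under other scaling, no filter, DESeq2, the sample number as a replicate block and fits of only 2 populations. With samples 1 to 3 alone, where Cnn3 lost its call in basal against AP (0.57, adjusted p = 0.398), basal against AP gave 29 higher, basal against HSL gave 31 higher and 1 lower, and AP against HSL 3 higher and 0 lower; over all genes the counts were 2009 higher and 1709 lower, 3143 and 2531, and 1048 and 443. That fit has 3 libraries a population, sample 1 among them. Kcnma1, Pdlim3, Lpp and Zyx also lost their basal against AP call in it (adjusted p = 0.484, 0.232, 0.341 and 0.102). In AP against HSL, Oxtr, Lmod1, Cacna1c, Csrp1 and Cald1 lost theirs (adjusted p = 0.138, 0.175, 0.0967, 0.104 and 0.338). The calls of these genes had held with each sample number left out. Samples 4 to 6 alone gave 36 higher and 0 lower in basal against AP, 34 and 3 in basal against HSL, and 21 and 6 in AP against HSL, against 34 and 0, 32 and 2, and 14 and 5 with all samples. Leaving out 1 sample number gave 33 to 34 genes higher in basal against AP, 31 to 33 in basal against HSL and 8 to 20 in AP against HSL. Scaling by library totals moved the median of all genes to -0.136, 0.100 and 0.185 (basal over AP, basal over HSL, AP over HSL). The looser CArG search gave 8 genes, against 3.

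Folds that changed sign were all of genes not called. Basal over AP, Tpm3 (-0.02) ranged from -0.10 to 0.07 with a number left out and was 0.20 in samples 4 to 6, Rhoa (-0.02) ranged from -0.08 to 0.02, and Rock1 and Rock2 were -0.01 and -0.13 in samples 1 to 3. Basal over HSL, Itpr1 ranged from -0.01 to 0.25 and was -0.01 in samples 4 to 6. AP over HSL, Ppp1r14a was 0.03 with DESeq2 size factors, 0.15 with library totals, 0.07 with no filter, 0.02 with the replicate block, 0.07 with only the 2 populations, 0.64 in samples 4 to 6, 0.01 with DESeq2, and -0.19 to 0.25 with a number left out. Rock2 was 0.11 with library totals, 0.00 with no filter, 0.15 in samples 1 to 3 and -0.12 to 0.12 with a number left out; Itpr1 0.09, 0.07 in samples 1 to 3 and -0.19 to 0.02; Actn1 0.04, 0.08 and -0.28 to 0.03. Synpo2 was -0.49 in samples 1 to 3 and -0.29 to 0.65, and Des 0.43 in samples 4 to 6 and -0.55 to 0.29. Differences in share that changed sign, in percentage points with a number left out, were those of Cnn2 (-0.812 to 1.48), Rock1 (-1.67 to 0.439) and Rock2 (-0.439 to 1.67) in basal minus AP, and of Myh9 (-1.47 to 1.8), Myh10 (-0.209 to 0.284), Myh14 (-3.54 to 0.368), Ppp1r12c (-0.998 to 1.08) and Actn2 (-0.00352 to 0.00687) in AP minus HSL. Called shares numbered 49 to 65 with a number left out, 63 of 90 in the paired sign-flip test by replicate block and 60 without division by exon length, against 61. The regulatory light chains gave no share, since Myl12a and Myl12b were listed at 0. The causes were not tested. Beside the calls given with the results, the block changed none.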
